A study of Mus musculus with 24 samples.

Results

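The small heat shock proteins of muscle and their co-chaperone Bag3 were followed at the mRNA level through the differentiation of mouse myoblasts, with and without silencing of the transcription factors Tead1 and Tead4. The 8 genes were taken from the deposited table by name, as the rows called Hspb1, Hspb2, Hspb3, Hspb6, Hspb7, Hspb8, Cryab and Bag3, out of 28109 genes in all. All 8 are protein coding, each has a single row, and all 8 passed the filter on low counts in each cell type.

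The RNA-seq libraries came from C2C12 cells, an established mouse myoblast line of C3H origin, and from primary myoblasts (PMs) isolated from 3- to 4-week-old wild-type C57BL/6 mice. Both were transfected either with the control siRNA, labelled siLuc and called siControl here, or with a mixture of siRNAs that targets both Tead1 and Tead4 (siTead1/4), and every group therefore received an siRNA. RNA was taken from undifferentiated cells 24 h after transfection (day 0) and after 3 and 6 days in 2% horse serum, the medium in which myoblasts fuse into myotubes. This gave 24 libraries in 12 groups of 2 biological replicates. Nothing in the labels says whether the duplicates came from separate animals or platings, so p-values measure the spread between these duplicates. Cell type, mouse strain, culture medium and line history differ together between C2C12 cells and PMs and cannot be told apart.

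Small heat shock proteins are chaperones that hold unfolding proteins without using ATP and pass them to the HSP70 machine for refolding or removal. Striated muscle makes an unusually wide range of them, and many sit at the Z-disc and along the desmin filaments, where contraction strains the proteins. Bag3 links HSPB8 to HSP70 and carries damaged Z-disc proteins such as filamin C to autophagy.

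The members lie on 5 chromosomes of the mm9 build. Hspb1 lies at chr5:136363789-136365433 and Hspb8 at chr5:116858500-116872873. Hspb2 at chr9:50559177-50560459 and Cryab at chr9:50560863-50564738 are neighbours that read away from each other, with 403 bases between them. Hspb6 lies at chr7:31337197-31340462 and Bag3 at chr7:135667097-135690491. Hspb7 lies at chr4:140976694-140981226 and Hspb3 at chr13:114453104-114453884. Hspb6 is the only member that overlaps other genes of the table, BC053749 by 119 bases and Lin37 by 3 bases. The library kit does not keep strand, so reads in those stretches cannot be told apart.

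RefSeq promoter windows of the GRCm38.p6 build, 250 bases before to 50 bases after the start of transcription, were found for 6 members, in 7 windows, and for neither Hspb2 nor Cryab. They were searched on both strands for GAANNTTC, a pair of the inverted units that make up heat shock elements, and for CATTCCA and CATTCCT, forms of the MCAT motif that TEAD proteins bind. GAANNTTC was found in 5 of the 6 members, all but Hspb7, and for Hspb6 in only 1 of its windows. It was thus in 5 of the 7 member windows, against 7.86% of all 32851 windows. The other order of the units, TTCNNGAA, was in no member window, against 8.52% of all windows, and 15.1% of all windows held either form. The same 8 letters, GAAGTTTC, stood in Hspb1, Hspb6, Hspb8 and Bag3, against 1.21% of all windows, a match noticed only once the windows had been read. The stretches of 30 bases around each match are shown because they are the sequence feature that most of the members share, with the match in capitals.
Hspb1 (chr5:135887791-135887820, plus strand): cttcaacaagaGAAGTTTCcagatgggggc
Hspb1 (chr5:135887811-135887840, plus strand): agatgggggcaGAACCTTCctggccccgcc
Hspb6 (chr7:30553170-30553199, plus strand): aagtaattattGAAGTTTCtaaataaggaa
Hspb8 (chr5:116422844-116422873, minus strand): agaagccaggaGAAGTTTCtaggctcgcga
Bag3 (chr7:128523603-128523632, plus strand): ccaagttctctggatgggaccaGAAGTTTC
Hspb3 (chr13:113663882-113663911, minus strand): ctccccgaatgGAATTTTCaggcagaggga

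The matches of Hspb1 begin 117 and 97 bases before the start, that of Hspb6 120 bases and that of Hspb3 224 bases before it, and those of Hspb8 and Bag3 lie in the transcribed part, at bases 3 to 10 and 43 to 50. The MCAT letters were found in 2 of the 7 member windows, those of Hspb7 and Hspb1, where 9.35% of all windows held either form. They are shown because the silenced factors are the proteins known to bind this motif. In Hspb7 the match covers bases 4 to 10 after the start, and in Hspb1 it reads on the opposite strand, 50 to 44 bases before the start.
Hspb7 (chr4:141420771-141420800, plus strand): ggaatcccagcCATTCCAacgtacttaggt
Hspb1 (chr5:135887858-135887887, plus strand): agcttagggggAGGAATGcagaggggaggg

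The E-box letters CAGCTG and CACCTG, bound by the MyoD family, were in no member window, against 16.3% and 20.2% of all windows. TATAAA stood in 13.6% of all windows and in those of Hspb6, 29 bases before the start, and Hspb3, 11 bases before it. The upstream part of the Hspb1 window carries both kinds of match and is printed whole, from 250 bases to 1 base before the start (chr5:135887669-135887918, plus strand), with the matches in capitals.
Hspb1 upstream: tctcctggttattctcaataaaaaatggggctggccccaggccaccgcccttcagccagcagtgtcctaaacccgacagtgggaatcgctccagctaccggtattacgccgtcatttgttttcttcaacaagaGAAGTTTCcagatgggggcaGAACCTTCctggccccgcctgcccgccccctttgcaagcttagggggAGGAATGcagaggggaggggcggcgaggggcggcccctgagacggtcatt
A match of letters is a description of the sequence, and binding was not measured here.

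The depth ranged from 25453830 to 52784510 counts per library, with a median of 39204772. Levels are given as CPM, the usual counts scaled to library size, on a scale (TMM) common to all 24 libraries. A gene was called when its adjusted p was below 0.05 (edgeR's quasi-likelihood test, Benjamini-Hochberg over all tested genes) and its log2 fold change was beyond 1 in either direction. The siRNAs lowered the summed CPM of Tead1 and Tead4. In a siTead1/4 library this sum was 7.86% to 59.8% of the siControl mean in C2C12 cells and 23.6% to 46.1% in PMs. The largest remainders were at day 6. Taken alone, Tead1 overlapped between the siTead1/4 and siControl libraries of C2C12 cells at day 6, with means of 73.8 and 106 CPM. PMs at every day, and C2C12 cells at days 3 and 6, were muscle cells by their markers. The summed CPM of 17 myogenic marker genes, Myog, Myh3 and Acta1 among them, was 629 to 32649 in C2C12 cells and 13130 to 60319 in PMs. Undifferentiated C2C12 cells were not set apart by these lists. Their siControl libraries held 1186 and 1008 CPM of myogenic markers, 839 and 1342 CPM of fibroblast markers and 1271 and 1109 CPM of smooth muscle markers. Summed markers of adipocytes stayed at or below 0.424 CPM, those of macrophages at or below 6.18 CPM, of endothelial cells 14.4 CPM and of Schwann cells 17.7 CPM, and the fibroblast and smooth muscle lists, several genes of which myoblasts also use, reached 3873 and 4322 CPM. In bulk RNA, fewer cells of a type and less RNA per cell cannot be told apart.

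Among the duplicates, 2 pairs of C2C12 siTead1/4 libraries were farther apart than the rest, with an SD of the log2 difference over genes of 0.737 at day 0 and 0.732 at day 3, against 0.417 to 0.629 in the other groups. At day 0 the second library kept 7.86% of the Tead1 and Tead4 level and the first 29.7%. At day 3 the second library held 13723 CPM of Hspa5 and 7525 CPM of Hsp90b1, chaperones of the endoplasmic reticulum, against 1380 and 989 CPM in its duplicate and 1018 and 804 CPM in the first siControl library. The members differed less between the siTead1/4 duplicates, and in either direction: Hspb1 measured 73.5 CPM in the second library and 83.4 CPM in its duplicate, Bag3 69.2 and 75.7 CPM, Hspb8 108 and 85.9 CPM, and Hspb7, the one farthest apart, 73.6 and 39.6 CPM, all below siControl.

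**Figure D1:**
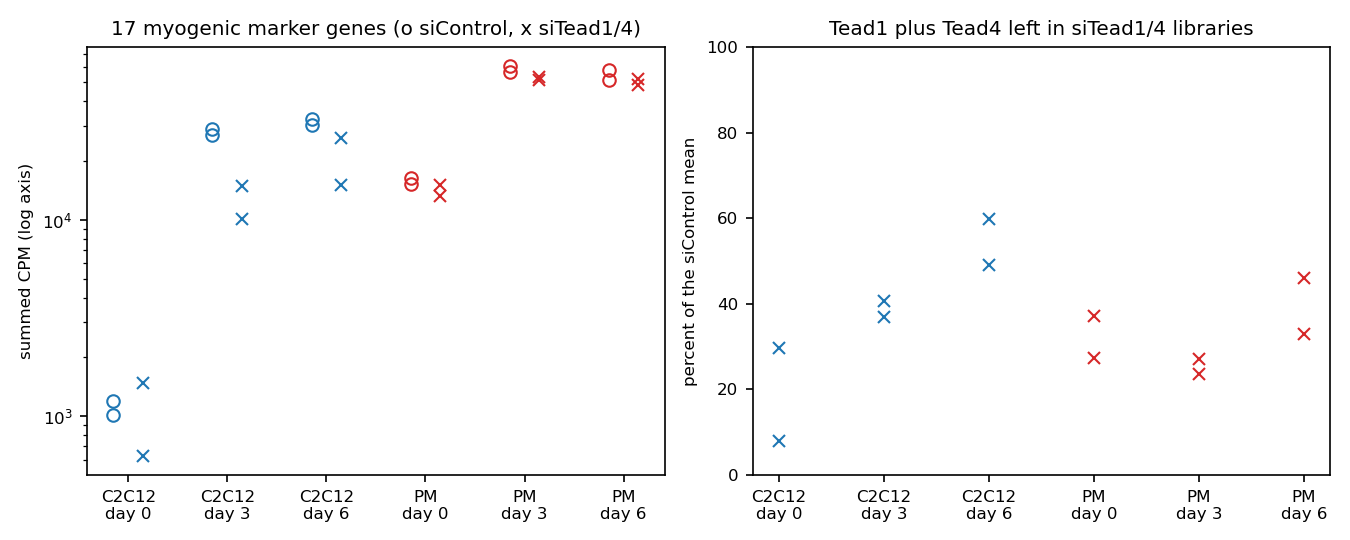
Left, summed CPM of 17 myogenic marker genes in each library (log axis, circles siControl, crosses siTead1/4, blue C2C12, red PM); right, Tead1 plus Tead4 CPM left in each siTead1/4 library as a percentage of the siControl mean. At day 3 the C2C12 siTead1/4 libraries held 10076 and 14892 CPM of the markers against 26864 and 29035 CPM in siControl.

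The members were first ranked by level in siControl cells, using CPM per kilobase of exon so that genes of different length can be set side by side. In undifferentiated C2C12 cells Hspb1, the heat-inducible HSP25 that binds actin, stood at the top with 290 ± 105 CPM per kb (mean ± SD, n = 2). Cryab, the αB-crystallin that protects desmin, followed with 106 ± 26.1 CPM per kb, then Hspb8 with 42.9 ± 1.25 and Bag3 with 33.3 ± 3.73 CPM per kb. Hspb7, a heart and muscle member that binds filamin C, was at only 0.319 ± 0.0203 CPM per kb, and Hspb3, the partner of HSPB2, was all but absent. No neighbours in this order had overlapping libraries.

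By day 6 in C2C12 cells Cryab led with 396 ± 22.0 CPM per kb, and Hspb1 with 163 ± 46.7 and Hspb8 with 134 ± 1.79 CPM per kb could not be ordered, since their libraries overlapped. Hspb6, the HSP20 that protein kinase A phosphorylates, was the lowest of the 8 there, at 5.00 ± 0.591 CPM per kb.

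In PMs the order was another. Hspb8 stood first at every day, from 292 ± 16.4 CPM per kb at day 0 to 980 ± 8.75 at day 6, and Cryab second, from 203 ± 10.4 to 659 ± 30.9 CPM per kb. At day 6 Hspb7 came next with 241 ± 3.72 CPM per kb. The libraries of Hspb1 and Hspb2 overlapped at that day, as did those of Hspb6, Hspb3 and Bag3 in turn, with means between 57.7 and 63.6 CPM per kb for the last group.

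**Figure D2:**
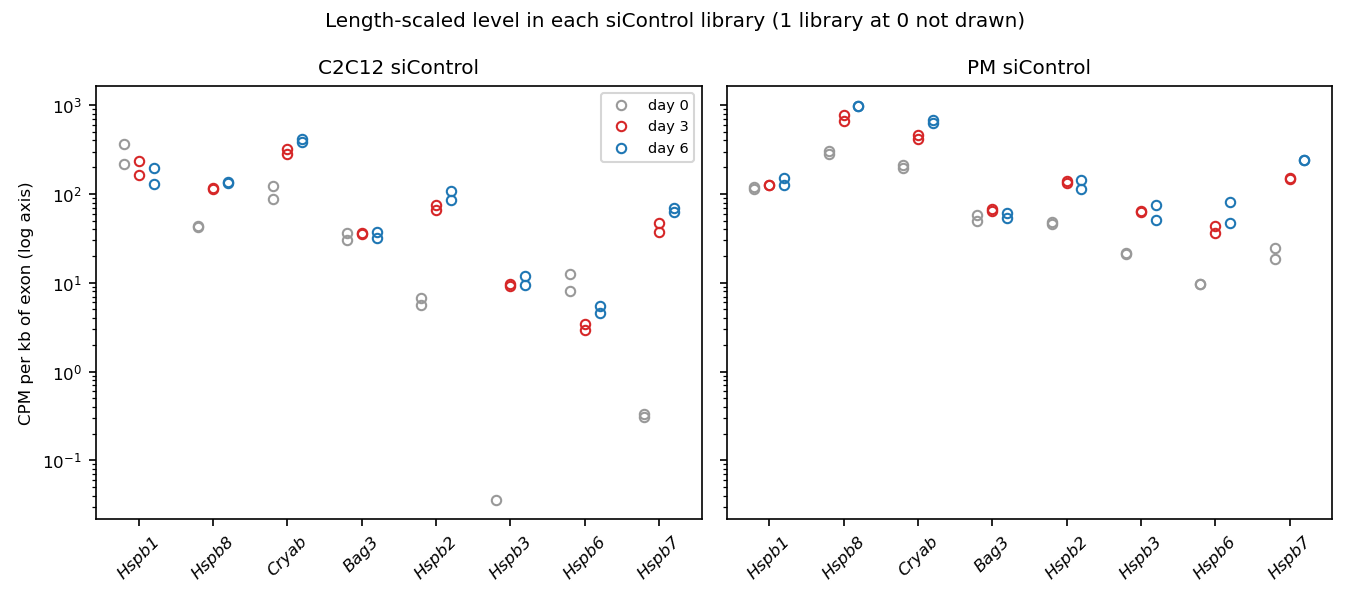
CPM per kb of exon (log axis) of each member in each siControl library at days 0, 3 and 6, in C2C12 cells (left) and PMs (right); each circle is a library, and the library of Hspb3 at 0 is not drawn. Hspb7 and Hspb3 span the widest range in C2C12 cells, while Bag3 keeps nearly the same level throughout.

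Differentiation was followed in the siControl cells. Hspb3 was at the floor in undifferentiated C2C12 cells and passed the filter there through the differentiated groups, so it had to differ, and it is described without a test wherever that group enters. Of the other 7 members in C2C12 cells 5 were called between day 3 and day 0, 4 up and 1 down, where 28.7% of the 15303 tested genes were called and 16.0% were called up. The counts were again 4 up and 1 down at day 6, where 31.1% were called and 17.1% called up. The median log2 fold change of the 7 was 1.38 at day 3 and 1.60 at day 6, against -0.01 for all tested genes at both days. Summed fibroblast markers, mostly Col3a1, went over the same days from 839 and 1342 CPM to 2715 and 3356 CPM at day 3 and 2558 and 2632 CPM at day 6, and their part in the member values was not tested.

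Hspb7 measured 0.844 and 0.924 CPM at day 0, 104 and 130 CPM at day 3, and 194 and 175 CPM at day 6. Neither differentiated group came near the undifferentiated libraries. The log2 fold change was 7.0 ± 0.42 (SE) at day 3 (adjusted p = 3.87e-06, edgeR) and 7.66 ± 0.43 at day 6 (adjusted p = 2.44e-06, edgeR).

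Hspb2 and Hspb3 encode proteins that assemble into a shared complex in differentiating muscle cells. Hspb2 went from 5.60 and 4.69 CPM at day 0 to 63.8 and 54.9 CPM at day 3 and 91.4 and 72.7 CPM at day 6, an induction of 11.2-fold (adjusted p = 1.24e-05, edgeR) and then 15.5-fold (adjusted p = 6.28e-06, edgeR). Hspb3 had 1 and 0 counts in the undifferentiated libraries, 320 and 354 counts at day 3, and 485 and 222 counts at day 6. Against a floor of 3 counts per library the day 3 level was at least 107-fold higher and the day 6 level at least 122-fold.

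Hspb8 and Cryab, already present in myoblasts, rose less. Hspb8 was at 85.4 and 82.0 CPM at day 0, 220 and 229 CPM at day 3, and 258 and 263 CPM at day 6, an increase of 2.60-fold and then 3.03-fold (adjusted p = 0.000927 and 0.000348, edgeR). Cryab went from 147 and 104 CPM to 383 and 331 CPM and then 451 and 488 CPM, or 2.76-fold and 3.63-fold (adjusted p = 0.0188 and 0.00571, edgeR). The call of Cryab was lost without the second day 0 library (adjusted p = 0.125 at day 3 and 0.0529 at day 6, edgeR), and at day 3 without either day 3 library.

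Hspb6 was the member that fell. Its libraries held 18.6 and 28.9 CPM at day 0, 7.81 and 6.74 CPM at day 3, and 10.5 and 12.5 CPM at day 6, without overlap between day 0 and the later days. The log2 fold change was -1.74 ± 0.40 at day 3 (adjusted p = 0.00619, edgeR) and -1.08 ± 0.39 at day 6 (adjusted p = 0.0457, edgeR). Without the second day 0 library, the higher of the pair, it was -1.39 at day 3 (adjusted p = 0.0515, edgeR) and -0.72 at day 6 (adjusted p = 0.274, edgeR). At day 6 the call was also lost without either day 6 library and with RLE size factors, and at day 3 without the second day 3 library.

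Hspb1 and Bag3 were not called in C2C12 cells. Hspb1 was at 375 and 222 CPM at day 0, 241 and 168 CPM at day 3, and 202 and 134 CPM at day 6. Day 3 overlapped day 0 (adjusted p = 0.313, edgeR), while both day 6 libraries lay below both day 0 libraries without passing the test (adjusted p = 0.138, edgeR). Bag3 kept within 79.5 and 97.8 CPM in all 6 siControl libraries, with log2 fold changes of 0.05 ± 0.23 and 0.02 ± 0.23. Between day 6 and day 3 no member was called in C2C12 cells, nor any of the 15303 genes (0.00% with edgeR, where 406 had an unadjusted p below 0.05, against 19 calls with DESeq2 and 102 without the filter). Of the 8 members 6 were higher at day 6 and 2 lower, where 48.8% of all tested genes were lower. No member had an unadjusted p below 0.05 there.

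In PMs 6 of the 8 members were called at day 3 and at day 6, all of them up, where 32.3% and 35.5% of the 16144 tested genes were called and 17.5% and 20.2% called up. The median log2 fold change of the 8 was 1.36 at day 3 and 1.56 at day 6, against 0.01 and 0.03 for all tested genes. Summed fibroblast markers went from 552 and 565 CPM at day 0 to 1474 and 1595 CPM at day 3 and 3873 and 2800 CPM at day 6, when 5 of the 7 tested were called up, and their part in the member values was not tested. Hspb6, which fell in C2C12 cells, rose in PMs. It held 22.0 and 22.2 CPM at day 0, 101 and 83.5 CPM at day 3, and 184 and 108 CPM at day 6, for a change of 4.01-fold (adjusted p = 2.21e-05, edgeR) and then 6.31-fold (adjusted p = 3.15e-06, edgeR).

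Hspb7 had the largest fold of the 8 in PMs at both days. It went from 68.5 and 51.4 CPM at day 0 to 405 and 419 CPM at day 3 and 660 and 674 CPM at day 6, 6.61-fold and 10.6-fold (adjusted p = 3.66e-07 and 1.09e-07, edgeR). Hspb2, at 38.8 and 41.1 CPM at day 0, reached 117 and 113 CPM at day 3 and 96.5 and 122 CPM at day 6. Its partner Hspb3 was expressed in undifferentiated PMs at 16.7 and 16.8 CPM and stood at 48.8 and 50.4 CPM at day 3 and 39.4 and 58.1 CPM at day 6. The folds of the pair were close at day 3, 2.77 for Hspb2 and 2.85 for Hspb3 (adjusted p = 1.47e-05 and 0.00023, edgeR).

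Hspb8 rose from 592 and 547 CPM to 1294 and 1505 CPM at day 3 and 1898 and 1922 CPM at day 6, the highest levels of any member. Cryab rose from 249 and 231 CPM to 493 and 546 CPM and then 755 and 807 CPM. The log2 fold changes at day 6 were 1.68 ± 0.15 for Hspb8 (adjusted p = 3.97e-06, edgeR) and 1.64 ± 0.16 for Cryab (adjusted p = 7.5e-06, edgeR). At day 3 the fold of Cryab, 1.06 ± 0.15 on the log2 scale, lay near the threshold and fell short of it without the second day 3 library, at 0.99. Hspb1 stayed between 118 and 157 CPM and Bag3 between 128 and 178 CPM, and neither was called. Between day 6 and day 3 no member passed both thresholds in PMs, where 2.80% of genes did, and Hspb7 alone had an adjusted p below 0.05 (log2 fold change 0.68 ± 0.15, adjusted p = 0.0248, edgeR).

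**Figure D3:**
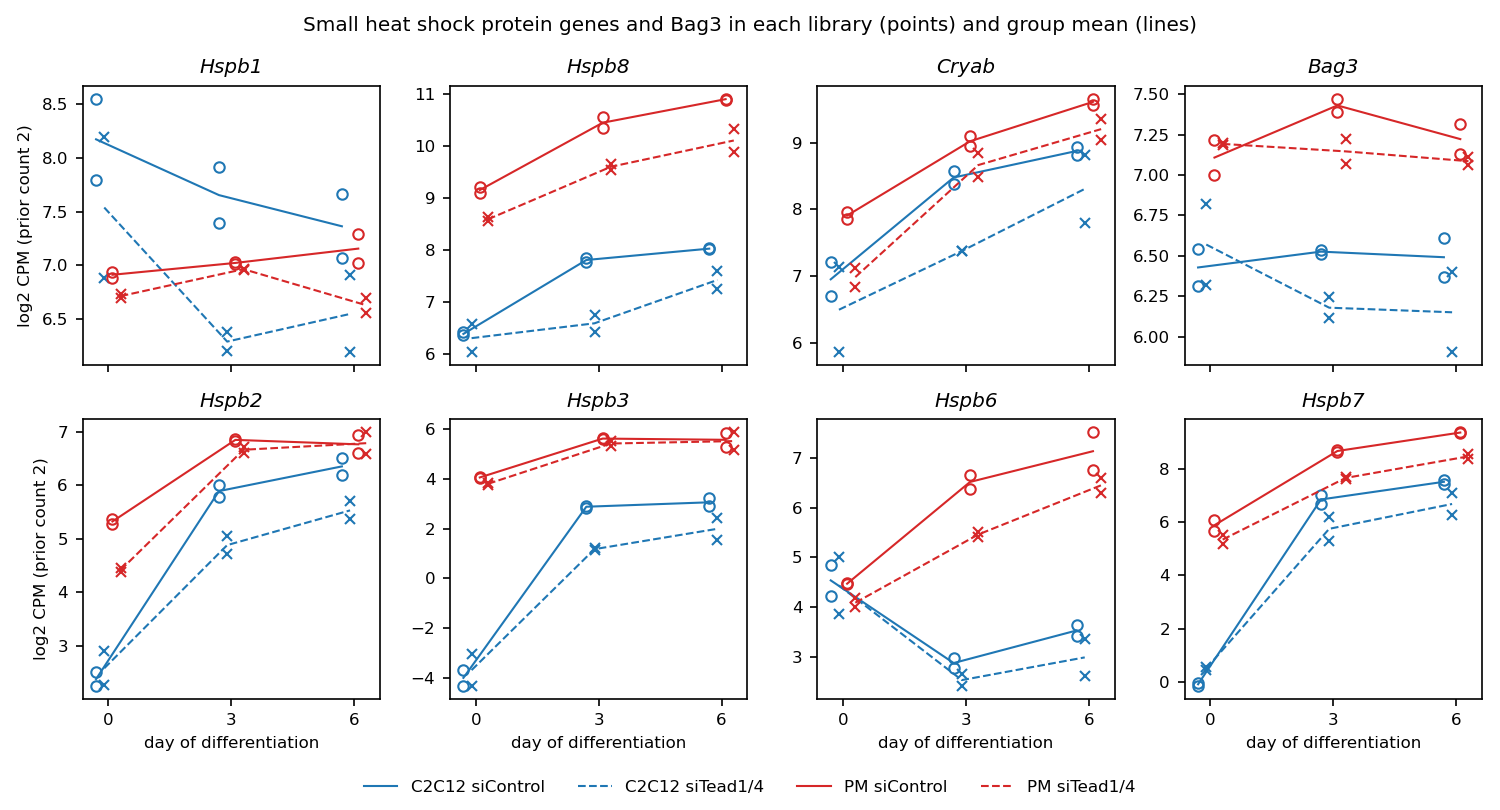
log2 CPM of each member in each library (points) and the group mean (lines) at days 0, 3 and 6; blue C2C12, red PM, circles and solid lines siControl, crosses and dashed lines siTead1/4. Hspb6 moves in opposite directions in the siControl cells of the 2 cell types, and the siTead1/4 points lie below the siControl points for all 8 members at day 3 in both.

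The change from day 0 was then compared between PMs and C2C12 cells by an interaction term. At both days 3 of the 7 members other than Hspb3 were called, Hspb2, Hspb6 and Hspb7, where 11.2% of the 16926 genes tested over all libraries were called at day 3 and 12.7% at day 6. For Hspb6 the log2 change was 3.77 ± 0.48 higher in PMs at day 3 (adjusted p = 3.96e-05, edgeR) and 3.77 ± 0.48 higher at day 6 (adjusted p = 2.94e-05, edgeR). For Hspb7 the PM change was the smaller, with differences of -4.25 ± 0.41 and -4.22 ± 0.41 (adjusted p = 2.56e-06 and 2.31e-06, edgeR), and for Hspb2 they were -2.0 ± 0.30 and -2.55 ± 0.30 (adjusted p = 0.000188 and 1.51e-05, edgeR). No test is given for Hspb3, since C2C12 cells started from the floor. The induction of Hspb8 differed by -0.12 ± 0.26 at day 3 and 0.11 ± 0.26 at day 6 on the log2 scale, and that of Cryab by -0.39 ± 0.47 and -0.20 ± 0.47, none of them called.

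**Figure D4:**
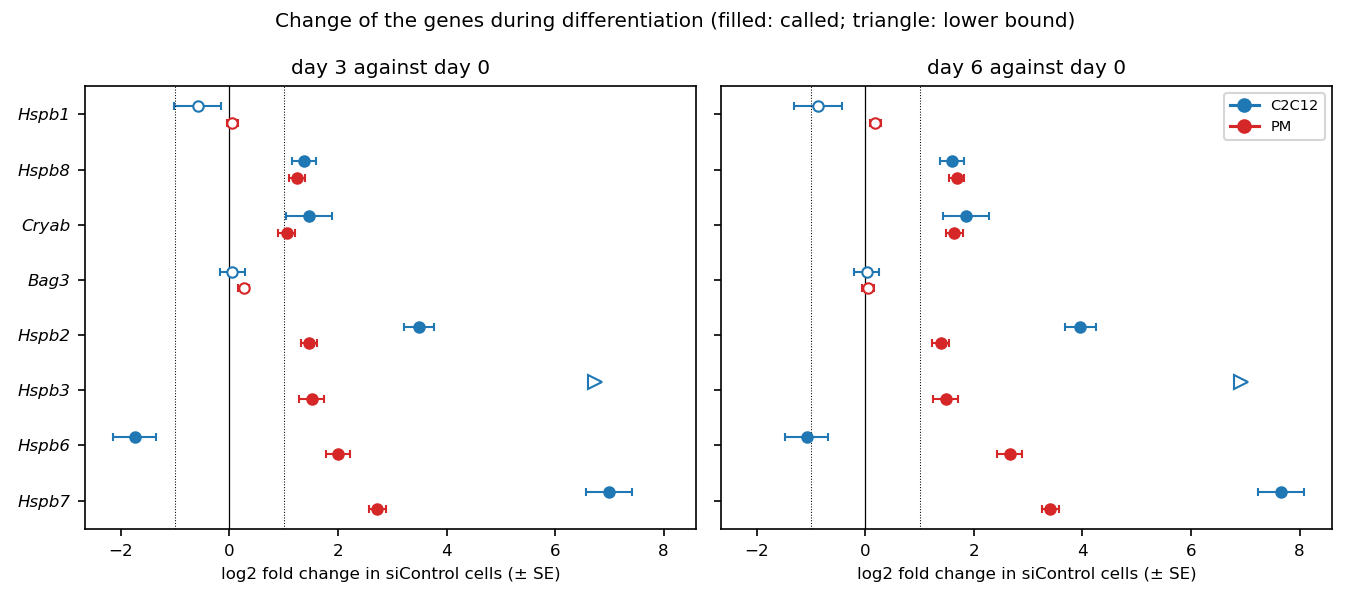
log2 fold change (± SE) of each member in siControl cells at day 3 (left) and day 6 (right) against day 0, in C2C12 cells (blue) and PMs (red); filled points are called, dotted lines mark the fold threshold, and the triangle is the lower bound of Hspb3 in C2C12 cells. Hspb6 is below 0 in C2C12 cells and above 0 in PMs at both days.

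The starting levels were compared directly. In siControl cells at day 0, 4 of the 7 members other than Hspb3 were called between PMs and C2C12 cells, where 26.8% of genes were. Hspb7 was 67.2-fold higher in PMs (adjusted p = 7.43e-10, edgeR), Hspb2 7.77-fold (adjusted p = 2.14e-08, edgeR) and Hspb8 6.80-fold (adjusted p = 1.1e-08, edgeR), and Hspb3, given with no test, was at least 243-fold higher against the floor. Hspb1 was 2.48-fold lower in PMs (adjusted p = 0.00572, edgeR), a call lost without the first C2C12 library (adjusted p = 0.0906, edgeR). Hspb6 was not called at day 0, with a log2 difference of -0.10 ± 0.32 (adjusted p = 0.834, edgeR).

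At days 3 and 6 the members called between the cell types were Hspb3, Hspb6, Hspb7 and Hspb8, 4 of 8, all higher in PMs, where 29.8% and 24.9% of genes were called. Hspb6 now differed most, by 12.7-fold at both days (adjusted p = 6.42e-07 and 7.36e-07, edgeR). Hspb8 was 6.24-fold and 7.33-fold higher (adjusted p = 3.05e-08 and 1.61e-08, edgeR), Hspb3 6.74-fold and 5.80-fold (adjusted p = 2.89e-06 and 8.33e-06, edgeR), and Hspb7 3.52-fold and 3.61-fold (adjusted p = 4.24e-05 and 4.75e-05, edgeR). Bag3 was modestly higher in PMs at all 3 days, by log2 differences of 0.68 ± 0.18, 0.91 ± 0.18 and 0.73 ± 0.18 (adjusted p = 0.00523, 0.000535 and 0.00368, edgeR), short of the fold threshold. With the replicate number as a block Bag3 passed it at day 3 (1.01, adjusted p = 0.000386, edgeR), and Cryab, at 0.94 ± 0.33 without the block at day 0, reached 1.0 (adjusted p = 0.0308, edgeR). The summed myogenic markers were higher in PMs as well, at 16265 and 15209 CPM against 1186 and 1008 CPM at day 0 and, with a smaller gap, 60319 and 56319 CPM against 26864 and 29035 CPM at day 3, and their part in the result was not tested. Hspb6 was not called at day 0 and was 12.7-fold higher in PMs at days 3 and 6. This was not tested against the markers either.

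Silencing of Tead1 and Tead4 was examined next, against the siControl libraries of the same day, which are the ones that also served the comparisons of days and of cell types. In undifferentiated C2C12 cells Hspb3, with 1 and 0 counts in siControl and 3 and 0 counts in siTead1/4, was at the floor and is given without a test. None of the other 7 members was called with edgeR or with DESeq2, and 0.438% of genes were called with edgeR. None of the 7 had an unadjusted p below 0.05, where 1603 of the 15303 tested genes did. The duplicates were far apart there: Hspb1 held 118 and 293 CPM in the siTead1/4 libraries against 375 and 222 CPM in siControl, and Cryab 57.8 and 141 CPM against 147 and 104 CPM. None of these 7 members had both siTead1/4 libraries below both siControl libraries, where 17.7% of genes did. Hspb7 lay the other way, at 1.41 and 1.32 CPM against 0.844 and 0.924 CPM, with a log2 fold change of 0.62 ± 0.39 (adjusted p = 0.655, edgeR).

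At day 3 in C2C12 cells every member was lower after siTead1/4 silencing. For all 8, both siTead1/4 libraries lay below both siControl libraries, as was true of 23.6% of genes, and their median log2 fold change was -1.10 against 0.01 for all genes. Only Hspb8 was called, 1 of 8 where 1.27% of genes were called. It measured 85.9 and 108 CPM against 220 and 229 CPM, a fold of 2.36 downwards (log2 fold change -1.24 ± 0.22, adjusted p = 0.0327, edgeR). The call was lost without any single one of the 4 libraries, with adjusted p between 0.0795 and 0.213 (edgeR), while the log2 fold change stayed between -1.39 and -1.07.

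Other members had folds as large with a wider error. Hspb3 was at 2.14 and 2.29 CPM against 7.55 and 7.17 CPM, a log2 fold change of -1.75 ± 0.44 (adjusted p = 0.0903, edgeR). Hspb1 was at 83.4 and 73.5 CPM against 241 and 168 CPM (-1.41 ± 0.45 on the log2 scale, adjusted p = 0.169, edgeR), and Cryab at 166 CPM in both libraries against 383 and 331 CPM (-1.13 ± 0.42, adjusted p = 0.237, edgeR). Hspb7, with 39.6 and 73.6 CPM against 104 and 130 CPM, had a log2 fold change of -1.08 ± 0.32 (adjusted p = 0.14, edgeR), and Hspb2, with 26.2 and 32.9 CPM against 63.8 and 54.9 CPM, of -1.03 ± 0.25 (adjusted p = 0.084, edgeR). Hspb6 and Bag3 were the least lowered, both at -0.37 on the log2 scale. The number of members called at this day was 5 with DESeq2 and 5 when all 24 libraries shared a fit, and in both these were Hspb1, Hspb2, Hspb3, Hspb7 and Hspb8. It was 6 without the filter on low counts and 0 when only the 4 libraries were fitted. Over all genes DESeq2 called 603 of 14411 and the fit of 24 libraries 690 of 16926. Without the filter 1055 of 25008 were called, and with only the 4 libraries 7 of 14341.

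Without the second siTead1/4 library, the one high in Hspa5, all 8 members were still lower, with a median log2 fold change of -1.25, and none was called. The summed myogenic markers also fell at this day, to 44.7% of the siControl mean, and their part in the lower member levels was not tested. By day 6 in C2C12 cells no member was called, where 0.0457% of genes were, with a median log2 fold change of -0.68 against 0.01. All 8 were still lower and in 7, all but Bag3, both siTead1/4 libraries lay below both siControl libraries, as for 21.0% of genes. Unadjusted p was below 0.05 for 4 members, Hspb2, Hspb3, Hspb7 and Hspb8, and for 1064 of the 15303 tested genes. The smallest adjusted p of the members was 0.41 for Hspb2 (edgeR). The first library was the lower of the pair, with 222 CPM of Cryab against 450 CPM in the second, and it also held fewer myogenic marker counts, 14995 against 26079 CPM.

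In PMs silencing was measured with less spread. At day 0 no member was called, where 2.60% of genes were, since none passed the fold threshold, but 4 had an adjusted p below 0.05. An unadjusted p below 0.05 was found for 4 members too, and for 3756 of the 16144 tested genes. The divergent neighbours Cryab and Hspb2 were lowest. Cryab measured 140 and 115 CPM against 249 and 231 CPM in siControl (-0.93 ± 0.15 on the log2 scale, adjusted p = 0.00707, edgeR), and Hspb2 21.9 and 20.6 CPM against 38.8 and 41.1 CPM (-0.92 ± 0.15, adjusted p = 0.00679, edgeR). Hspb8 and Hspb7 followed, at -0.57 ± 0.14 and -0.56 ± 0.15 (adjusted p = 0.0376 and 0.0474, edgeR). In 7 of 8 members, all but Bag3, the siTead1/4 libraries lay below both siControl libraries, as for 29.8% of genes.

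At day 3 in PMs 2 of 8 members were called, Hspb6 and Hspb7, where 3.30% of genes were. Hspb6 measured 42.5 and 45.5 CPM against 101 and 83.5 CPM, a log2 fold change of -1.08 ± 0.21 (adjusted p = 0.0138, edgeR). Hspb7 measured 199 and 208 CPM against 405 and 419 CPM, or -1.02 ± 0.15 (adjusted p = 0.00311, edgeR). Both lie close to the fold threshold, and neither was called when all 24 libraries shared a fit (adjusted p = 0.105 and 0.0509, edgeR). Hspb6 lost its call without the first siControl library, whose 101 CPM was the higher, and without either siTead1/4 library, and Hspb7 without the first siTead1/4 library, where its fold was just under the threshold.

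Hspb8 fell short of the fold threshold on that day. It held 747 and 806 CPM against 1294 and 1505 CPM (-0.86 ± 0.14 on the log2 scale, adjusted p = 0.00653, edgeR). Hspb2 and Cryab, the lowest at day 0, now stood at -0.19 ± 0.15 and -0.36 ± 0.15 (adjusted p = 0.5 and 0.196, edgeR). All 8 members again had both siTead1/4 libraries below both siControl libraries, as 25.0% of genes did, by as little as 125 CPM in both libraries against 130 and 131 CPM for Hspb1. The median log2 fold change was -0.32, against 0.01 for all genes.

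At day 6 in PMs no member was called, where 0.743% of genes were, and 3 had an adjusted p below 0.05. An unadjusted p below 0.05 was found for 5 members and for 1914 of the 16144 tested genes. Hspb7 was at 338 and 380 CPM against 660 and 674 CPM (-0.89 ± 0.15 on the log2 scale, adjusted p = 0.0212, edgeR). Hspb8 was at 951 and 1276 CPM against 1898 and 1922 CPM (-0.78 ± 0.14, adjusted p = 0.0336, edgeR), and Hspb1 at 94.2 and 104 CPM against 157 and 130 CPM (-0.53 ± 0.10, adjusted p = 0.038, edgeR). Hspb8 passed the fold threshold without the second siTead1/4 library, at -1.01, and Hspb6 both thresholds without the second siControl library, at -1.06 (adjusted p = 0.0324, edgeR). In 6 of 8 members the siTead1/4 libraries lay below both siControl libraries, as for 18.2% of genes, and the exceptions, Hspb2 and Hspb3, overlapped with log2 fold changes of 0.03 ± 0.15 and -0.03 ± 0.22. Hspb7 and Hspb8 were thus the members with an adjusted p below 0.05 at all 3 days in PMs in the main fit (edgeR). This was not kept in every fit that left out a library. In those fits the log2 fold change of Hspb7 lay between -0.76 and -0.33 at day 0 and between -0.99 and -0.81 at day 6. That of Hspb8 lay between -0.63 and -0.51 at day 0 and between -1.01 and -0.58 at day 6. The summed myogenic markers in PMs were at 89.3%, 89.5% and 91.8% of the siControl mean at days 0, 3 and 6, and their part in these values was not tested.

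**Figure D5:**
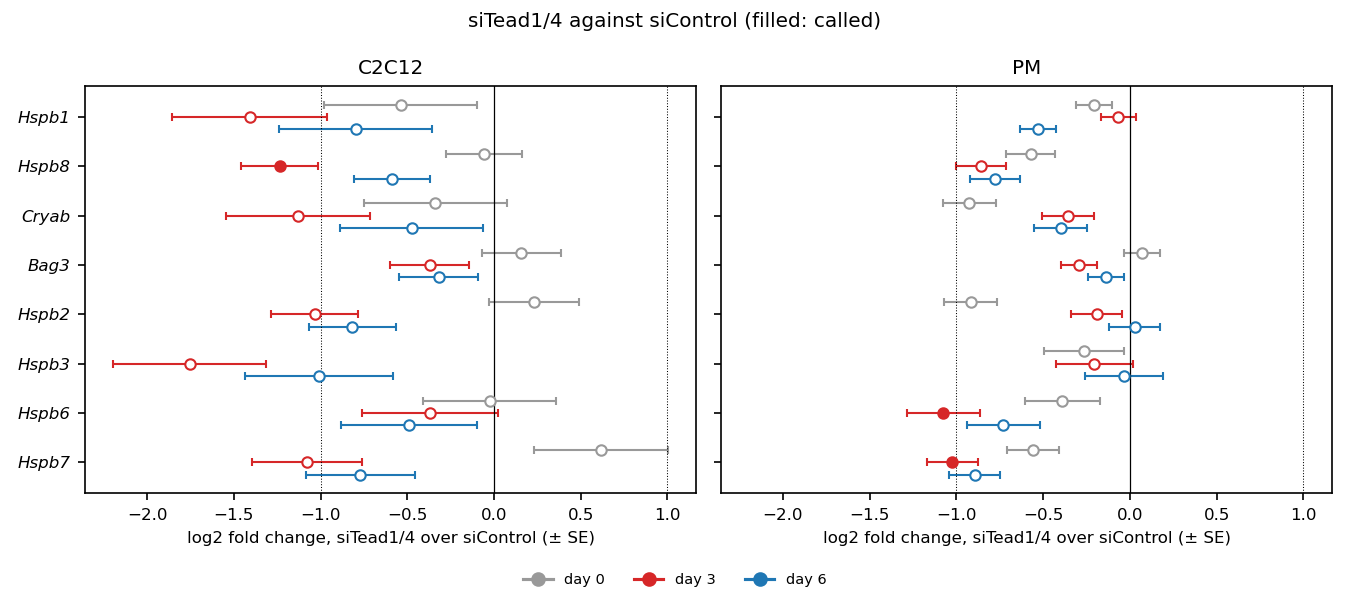
log2 fold change (± SE) of each member after siTead1/4 silencing at days 0 (grey), 3 (red) and 6 (blue), in C2C12 cells (left) and PMs (right); filled points are called and dotted lines mark the fold threshold. Hspb3 at day 0 in C2C12 cells, where all 4 libraries held 3 counts or fewer, is not drawn.

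The effect of silencing was not shown to differ between the cell types for any member. At day 0 Hspb3 is left out, since its C2C12 libraries were at the floor. The interaction called 0 of the other 7 at day 0 and 0 of 8 at days 3 and 6 with edgeR, where 0.00591%, 1.25% and 0.0354% of genes were called at days 0, 3 and 6. The unadjusted p was below 0.05 for 2 members at day 0 and 2 at day 6. Of all 16926 genes it was so for 725 at day 0, 2205 at day 3 and 916 at day 6. The members below 0.05 at day 3 were 3, Hspb1, Hspb2 and Hspb3, all less lowered in PMs. Their log2 differences were 1.33 ± 0.48, 0.82 ± 0.29 and 1.53 ± 0.43 (adjusted p = 0.219, 0.206 and 0.0991, edgeR). DESeq2 called 1 of them, Hspb3, with an adjusted p of 0.00951. For Hspb7 and Hspb8 the differences at day 3 were 0.03 ± 0.37 and 0.36 ± 0.27.

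The partners of the small heat shock proteins were counted by list. Of 36 genes of the HSP70 and HSP90 machine, 0 were called after silencing at day 3 in either cell type. Of all genes 1.27% were called in C2C12 cells and 3.30% in PMs, shares at which a list of this size can hold no call. The median log2 fold changes of the list were -0.15 in C2C12 cells and -0.18 in PMs. Hspa5 and Hsp90b1, at 2.88 ± 0.80 and 2.37 ± 0.67 on the log2 scale in C2C12 cells, were not called (adjusted p = 0.121 and 0.129, edgeR), being high in the second library alone. In PMs the smallest adjusted p were those of Dnajb6, an HSP40 that works with Bag3 (-0.60 ± 0.09, adjusted p = 0.00437, edgeR), and Fkbp5, a co-chaperone of HSP90 and steroid receptors (0.62 ± 0.11, adjusted p = 0.00754, edgeR), and neither passed the fold threshold. The only gene of this list called after silencing was Hspa2, an HSP70 of testis and muscle, higher in PMs at day 0 (1.07 ± 0.17, adjusted p = 0.00625, edgeR). There 2.60% of all genes were called.

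Of 17 genes of the BAG family and of chaperone-assisted selective autophagy, 0 were called after silencing at any day in either cell type. Of all genes 0.0457% to 3.30% were called in these comparisons, shares at which a list of this size can hold no call. Synpo2, the Z-disc protein that joins Bag3 to the autophagosome, was at -0.72 ± 0.12 in PMs at day 3 (adjusted p = 0.00588, edgeR) and at -0.44 ± 0.20 in C2C12 cells (adjusted p = 0.344, edgeR). In C2C12 cells the lowest adjusted p of the list at day 3 were those of Gabarapl1, an autophagosome protein, and Sqstm1, the p62 autophagy receptor, with positive log2 fold changes of 0.60 ± 0.19 and 0.84 ± 0.31 (adjusted p = 0.158 and 0.247, edgeR). During differentiation of siControl cells to day 3, 5 of the 17 were called up in C2C12 cells, where 16.0% of all genes were, and 3 up and 1 down in PMs, where 17.5% of all genes were called up, a share near that of the list. Synpo2 rose by 3.38 ± 0.21 and 1.72 ± 0.12 on the log2 scale (adjusted p = 4.43e-06 and 1.13e-06, edgeR) and Map1lc3a, an LC3 of autophagosome membranes, by 2.99 ± 0.32 and 2.76 ± 0.21 (adjusted p = 7.41e-05 and 2.24e-06, edgeR), while Bag3 itself was not called.

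The Z-disc and desmin filament genes, whose products several of these chaperones bind, numbered 21, of which 20 were tested in C2C12 cells. At day 3 of differentiation 15 of 20 were called up and 3 down in C2C12 cells, and 15 of 21 up and 3 down in PMs. Of all genes 16.0% and 17.5% were called up there. After silencing 4 were called down in C2C12 cells at day 3 and 0 in PMs, with medians of -1.20 and -0.23 on the log2 scale. Silencing called 1.27% and 3.30% of all genes in either direction at that day. The 4 were Actn2, the Z-disc α-actinin, at 39.8 and 45.3 CPM against 270 and 474 CPM (-3.16 ± 0.54, adjusted p = 0.0294, edgeR), Csrp3 (-2.17 ± 0.44, adjusted p = 0.0454, edgeR), Myoz2, a calcineurin-binding Z-disc protein (-1.38 ± 0.23, adjusted p = 0.0289, edgeR), and Nebl, named after its value was seen (-1.73 ± 0.35, adjusted p = 0.0456, edgeR). For Actn2 the effect also differed between PMs and C2C12 cells (2.76 ± 0.55, adjusted p = 0.0196, edgeR). In PMs Flnc, the filamin C that Bag3 and HSPB7 bind, was at -0.82 ± 0.14 (adjusted p = 0.00673, edgeR), and Unc45b, the myosin chaperone, at -0.66 ± 0.14 (adjusted p = 0.0166, edgeR).

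Of 4 other genes of the HSPB family, Hspb9 and Hspb11 were tested and Cryaa and Odf1 were too low. Neither was called after silencing, and Hspb9, a testis member, was called down from day 0 to day 3 in PMs (-2.0 ± 0.60, adjusted p = 0.0148, edgeR).

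The members fell into patterns across the 24 libraries, which share 2 cell types and 3 days and so give correlations only as a description. The log2 CPM of Hspb2 and Hspb7 had a Pearson r of 0.98, of Hspb3 and Hspb7 0.94, of Hspb2 and Hspb3 0.92, and of the neighbours Hspb2 and Cryab 0.91. Hspb8 went with Hspb3 (0.88) and with its partner Bag3 (0.84). Hspb6 had its highest r with Bag3 (0.80) and Hspb8 (0.79) and only 0.35 with Hspb7. Hspb1 had no r above 0.08 with any other member and was at -0.48 with Hspb3. Every r of Hspb3 includes the undifferentiated C2C12 libraries, where it was at the floor. Its log2 CPM there, -4.33 to -3.05, depended on the prior count.

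Among all 16926 genes, those most like Hspb7 over the 24 libraries were Kbtbd5, a kelch protein of muscle (0.99), Klhl34 (0.99) and Hhatl (0.99). Hspb2 was most like Fn3k (0.99), 4930429F24Rik (0.99) and Tmod1, a cap of thin filaments (0.99). Hspb3, at the floor in undifferentiated C2C12 cells, was most like Cldn2 (0.99), Cand2 (0.99) and Sbk2 (0.99). Hspb8 was most like Abcc8 (0.98), Cmya5, a protein of striated muscle (0.97), and Fahd1 (0.97).

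Cryab was most like Ttc9 (0.96), Pacsin3 (0.95) and Bod1 (0.95). Hspb6 stood with Rarb, a retinoic acid receptor (0.95), Pdk4, the kinase that shuts pyruvate dehydrogenase (0.93), and Mlf1 (0.93). Bag3 was most like Apoo (0.96), Nap1l4 (0.96) and Glis1 (0.95). Hspb1 had the weakest likeness of the 8, with Stmn4 (0.86), Raly (0.85) and Bak1 (0.85).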

How the data were processed

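The authors aligned poly(A) RNA-seq reads to mm9 and counted them per gene. The submitters' processing notes name CASAVA 1.8.2, TopHat2 2.0.10, Bowtie2 2.1.0, HTSeq 0.6.1 and DESeq2 1.8.1. The deposited table held raw counts per gene, used here for 24 libraries, and the authors' normalised values, not used. A further 36 columns of 12 unlisted libraries were not used. Gene length, deposited by the authors in bases, gave CPM per kb.

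Counts were filtered (filterByExpr), TMM-scaled and tested with edgeR 4.0.16 (glmQLFit, glmQLFTest, R 4.3.3), with 12 libraries of a cell type in a fit, or 24 for comparisons between cell types. Standard errors were the log2 fold change divided by the square root of F. The scripts were tested on simulated data. Alternatives were DESeq2 1.42.0, RLE size factors, no filter, a replicate block, pooled or smaller fits, and each library left out. log2 CPM used a prior count of 2. A floor of 3 counts per library covered counting error only.

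The members and the gene lists were chosen with earlier results of these data known. The text names the 8 members, Tead1 and Tead4, from each partner list up to 3 genes of lowest adjusted p after silencing at day 3, and the 3 genes most like each member.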

Additional observations from a re-analysis of the deposited data

Results flagged for a closer look

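The change from day 0 in siControl cells differed between PMs and C2C12 cells, by an interaction test, for Hspb2, Hspb6 and Hspb7 at both later days. On the log2 scale, PM minus C2C12, the difference for Hspb6 was 3.77 at day 3 and 3.77 at day 6, since the gene rose in PMs and fell in C2C12 cells. For Hspb7 it was -4.25 at day 3 and -4.22 at day 6, and for Hspb2 -2.0 and -2.55, both being induced in each cell type, from lower starting levels in C2C12 cells. For Hspb3 the fitted values were -7.46 and -7.68, which carry no test and depend on the prior count because the undifferentiated C2C12 libraries held 1 and 0 counts. The values of Hspb2, Hspb6 and Hspb7 were called in every fit that left out a single library. Cell type, strain and culture differ together, and their parts cannot be told apart. Groups of 2 libraries were too small to test for outlying samples.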

How the results depend on the processing

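Of the 48 member values called over the 20 comparisons, none changed sign under any alternative. The 48 include the values of Hspb3 that involve undifferentiated C2C12 cells, where it was at the floor. The sign of those values was fixed by the floor, so they say nothing about the processing. Counts of members called, Hspb3 included, differed as follows. For siTead1/4 against siControl in C2C12 cells at day 3, the count of 1 became 6 without the filter, 5 with DESeq2, 5 with all 24 libraries in a fit and 0 with only the 4 libraries, and 0 to 0 with a library left out. For PMs at day 3 the count of 2 became 0 with all 24 libraries in a fit and lay between 0 and 2 with a library left out. For PMs at days 0 and 6, and for the difference of the silencing effect at day 0, the count of 0 lay between 0 and 1 with a library left out. For that difference at day 3 the count of 0 became 2 without the filter and 1 with DESeq2. With a library left out, C2C12 differentiation gave 4 to 6 in place of 6 at either day, PM differentiation to day 3 gave 5 to 6, and PMs against C2C12 cells at day 3 gave 4 to 5 in place of 4. Without the filter Hspb1 was added to the difference of the change at day 6. Counts over all genes moved as well: C2C12 silencing at day 3 gave 195 calls with edgeR, 603 with DESeq2, 690 in the fit of 24 libraries, 1055 without the filter and 7 with only 4 libraries. The same settings in that order gave 67, 256, 245, 480 and 0 calls for undifferentiated C2C12 cells, 7, 143, 88, 387 and 0 for C2C12 cells at day 6, and 420, 454, 204, 578 and 509 for undifferentiated PMs. PMs at day 3 had 532, 588, 312, 804 and 460 calls, and PMs at day 6 had 120, 224, 60, 335 and 0. The silencing effect differed between cell types for 1, 212 and 6 genes over the 3 days with edgeR and for 32, 494 and 60 with DESeq2. Among values not called, 23 changed sign by more than their error when a library was left out, 6 of them for C2C12 silencing at day 0. No label says that a replicate number marks a shared plating or day, and there are only 2 numbers, so the samples were not treated as paired. Their deviations from the group means correlated between siControl and siTead1/4 at -0.13 to 0.47 in C2C12 cells and 0.38 to 0.50 in PMs, and with the replicate block the members called at day 3 were 1 in C2C12 cells and 2 in PMs, as without it, but PM silencing over all genes rose from 420 to 586, 532 to 792 and 120 to 290 calls over the 3 days, C2C12 silencing at day 6 from 7 to 12 and the difference of the effect from 1, 212 and 6 to 5, 327 and 34, while Cryab at day 0 and Bag3 at day 3 were also called between PMs and C2C12 cells. The cause of these changes was not tested. With 2 libraries a group, small differences were not detectable.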
